A study of Drosophila melanogaster with 4 samples.

Results

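The genes described here encode the proteins of the mitochondrial ribosome in Drosophila melanogaster, the genes whose annotated symbols begin with mRpL or mRpS. They number 73 of the 18358 genes in the annotation, 47 of the large subunit and 26 of the small subunit, and all are protein coding. The rule that picks them uses their symbols and no measured value. The start sites of capped RNAs were mapped by cap analysis of gene expression (CAGE), in which each read, called a tag, marks the 5' end of 1 capped RNA and its strand.

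The tested males carried bamGAL4 with an RNA interference transgene against kmg (bamGAL4/ KmgRNAi), and the control males carried bamGAL4 without it. The driver bamGAL4, present in both genotypes, is active in late spermatogonia. Kmg is a zinc finger protein of spermatocytes, and the series asks whether a complex of which it is part keeps cryptic promoters silent. In both groups the crosses spent 3 days at 25 °C before the progeny went to 29 °C, and RNA came from 150 pairs of whole testes of males aged 0 to 2 days for each library. Each genotype had 2 libraries, and the deposited values pool them into 1 value per group. Every comparison below is therefore between 2 pooled values, with no replicate check and no p-value. Sequencing of the knockdown gave paired reads of 150 bp, of which read 1 entered the data, and that of control gave single reads of 76 bp, so that read length and genotype cannot be told apart.

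The mitochondrial ribosome translates the few proteins that the mitochondrial genome encodes, which are core subunits of the respiratory chain and of ATP synthase. Its own proteins are all encoded in the nucleus, translated in the cytosol and imported. Some descend from bacterial ribosomal proteins, and others are found only in mitochondria. In the fly, tko, which encodes the S12 protein of the small subunit, and bonsai, which encodes the S15 protein, belong to the same particle under other symbols.

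The pooled knockdown held 34975246 tags in 57330 clusters of start positions, and the pooled control held 56519714 tags in 32731 clusters. Levels are given as TPM, the tags of a cluster scaled to 1e+06 for all clusters of its group. For a cluster with no tags the floor is 3 tags, or 0.0858 TPM in the knockdown and 0.0531 TPM in control. The targeted gene kmg stood at 12.7 TPM in the knockdown and 48.5 TPM in control, a log2 ratio of -1.86. Clusters found in both groups had a median log2 ratio of 0.71 on this scale. These clusters are of every kind, with those in coding exons and introns included. At annotated start sites alone the median over all genes was -0.046 before any rescaling. The main changes of the ribosomal genes are also given rescaled, with the shift of 0.71 removed. Other changes are on the TPM scale unless rescaling is named. The testes also differed in marker levels. The 14 germline markers, all measured, summed to 4629 TPM in the knockdown and 13448 TPM in control. That sum is carried by w-cup, dj and Mst98Ca, while 10 of the 14 had a higher value in the knockdown. The list's median log2 ratio was 0.90, and 0.20 after rescaling. By the 4-fold rule given below, 3 (21.4%) were called higher and 2 (14.3%) lower, beside 21.3% and 5.42% of all genes. At annotated start sites alone the list's median was -0.13. There 1 (7.14%) was called higher and 3 (21.4%) lower, beside 7.71% and 9.53% of all genes. The 7 muscle sheath markers summed to 435 TPM in the knockdown and 1359 TPM in control, with a lower value in the knockdown for all 7. The 6 accessory gland markers summed to 59.6 TPM in the knockdown and 164 TPM in control. Without Acp36DE, which had 53.8 TPM in the knockdown and 16.5 TPM in control, the other 5 summed to 5.80 TPM in the knockdown and 147 TPM in control, and 4 of them were called lower. At annotated start sites alone Acp36DE had a log2 ratio of -3.15. There 5 of the 6 markers were called lower, beside 9.53% of all genes. The 5 cyst cell markers summed to 162 TPM in the knockdown and 67.9 TPM in control, of which so alone had 121 TPM in the knockdown and 19.5 TPM in control. Of the 5, 3 had a lower value in the knockdown, and the list's median log2 ratio was -0.18. Of the 3 fat body markers, Yp1 had no tag in either group, and the list summed to 5.38 TPM in the knockdown and 0.902 TPM in control. The accessory gland marker Acp26Aa had no tag in the knockdown. The part of these differences in the values of the ribosomal genes was not tested, and in whole testes fewer cells of a type and less RNA per cell cannot be told apart.

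Capped 5' ends were found at all 73 genes in both testes, for mRpL51 in the cluster described below. By the sum of the clusters whose strongest position lay in the gene or within 100 bp of its annotated transcription start site (TSS), 72 reached 1 TPM in the knockdown and 73 in control. At 10 TPM or more stood 70 genes in the knockdown and 64 in control. Their median level was 42.9 TPM in the knockdown and 23.9 TPM in control, and their sum was 4440.3 TPM in the knockdown and 2530.4 TPM in control. An RNA gives 1 tag whatever its length, so these levels can be set side by side between genes. Across all 12864 genes measured, the medians were 24.5 TPM in the knockdown and 12.9 TPM in control.

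The strongest member in control was mRpS17, a small-subunit protein with a bacterial counterpart, at 176 TPM in the knockdown and 153 TPM in control. Next in control came mRpL53, at 244 TPM in the knockdown and 117 TPM in control, and mRpL42, at 258 TPM in the knockdown and 112 TPM in control. Both encode proteins with no bacterial counterpart. All tags of mRpL53 lie in a gene model that CG33155 shares, so they cannot be divided between these genes, and the same holds for mRpL13 and CG10602. The highest member in the knockdown was mRpL42, whatever share of the mRpL53 tags belongs to CG33155. Then mRpL36 stood at 101 TPM in the knockdown and 108 TPM in control, and mRpS18A at 138 TPM in the knockdown and 103 TPM in control. The gene mRpL12, whose product forms the flexible stalk that recruits translation factors, stood at 212 TPM in the knockdown and 90.3 TPM in control. These 6 genes made up the top of the control order, and the lowest member, mRpL20, had 1.34 TPM in the knockdown and 1.57 TPM in control, from 47 tags in the knockdown and 89 in control.

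The other members among the 12 highest in control lay between 59.7 and 88.3 TPM there. The gene mRpS34 had 150.5 TPM in the knockdown and 88.3 TPM in control, and mRpL43 had 46.5 TPM in the knockdown and 71.4 TPM in control. The gene mRpS6 had 103 TPM in the knockdown and 71.3 TPM in control, and mRpS21 had 83.9 TPM in the knockdown and 65.1 TPM in control. Of this set mRpL43 was the only gene with a lower value in the knockdown. The gene mRpS10 had 77.1 TPM in the knockdown and 65.0 TPM in control, and mRpS7, a small-subunit head protein with a bacterial counterpart, had 120.3 TPM in the knockdown and 59.7 TPM in control.

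Small-subunit genes had the higher median in both testes. It was 67.5 TPM in the knockdown and 28.6 TPM in control, against 34.4 TPM in the knockdown and 20.8 TPM in control for the large subunit. The spread within each subunit was wide, from 28.2 to 190.2 TPM in the knockdown and from 11.2 to 153 TPM in control for the small subunit. For the large subunit it ran from 0 to 258 TPM in the knockdown and from 1.57 to 117 TPM in control. The highest large-subunit genes in both groups thus lay within or above the range of the small subunit, as the plot of levels by gene shows.

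**Figure D1:**
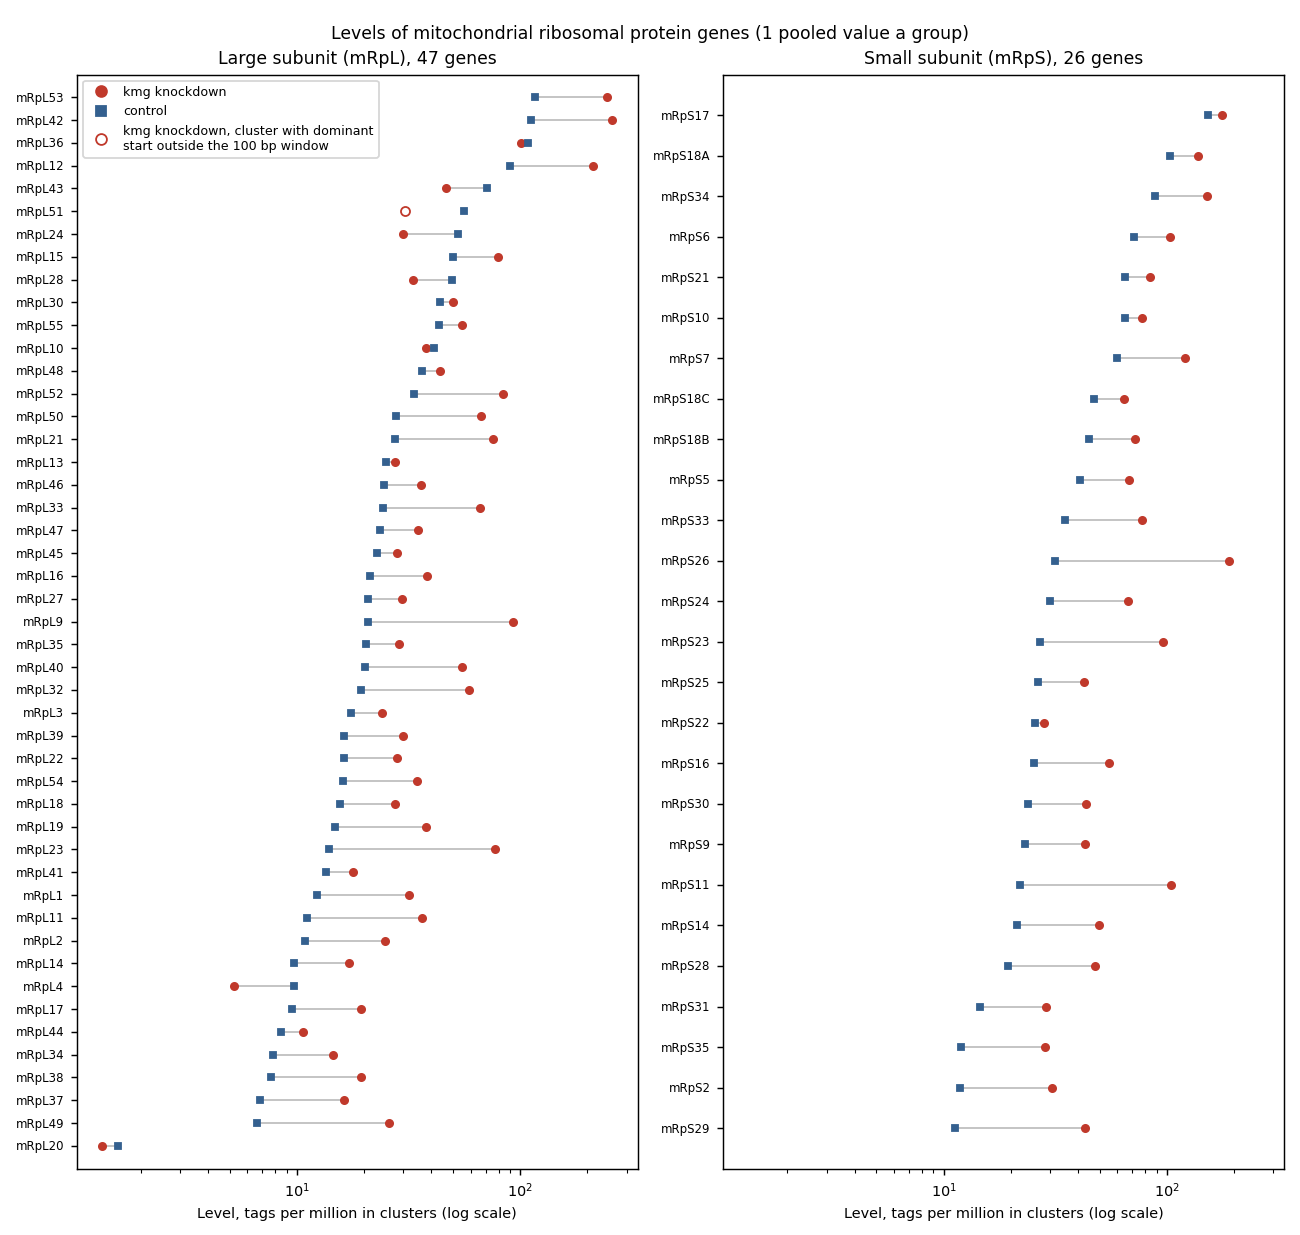
Level of each mitochondrial ribosomal protein gene in the kmg knockdown (red circles) and control (blue squares), in TPM on a log axis, with 1 pooled value per group and no error bar. Genes run down each panel by their control level, from mRpL53 at 117 TPM to mRpL20 at 1.57 TPM in the large subunit. The open circle is mRpL51, whose knockdown cluster of 30.7 TPM has its strongest position outside the 100 bp window.

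The genes had a narrow distribution of changes. The change was log2((knockdown + 1) / (control + 1)) of the TPM values, a scale that understates changes of low genes, and a gene was called at 2 or above or at -2 or below, which is 4-fold. The median over the 73 genes was 0.82, beside 0.67 over all 12864 measured genes. After rescaling, these medians were 0.14 for the ribosomal genes and -0.021 for all genes. On the TPM scale 65 of the genes had a higher value in the knockdown and 8 a lower one, and 43 were above 0 after rescaling. Within 2-fold of equality lay 42 genes on the TPM scale and 61 after rescaling. Called higher were 4 of the 73 genes (5.48%), beside 21.3% of all genes. Called lower was 1 gene (1.37%), beside 5.42% of all genes. After rescaling 0 were called higher, beside 14% of all genes, and 1 was called lower, beside 9.39%. Fewer of these genes passed the rule than of genes in general. Of all genes tested, 20.8% stood below 1 TPM in 1 of the groups, against 1 of the 73 here.

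The medians were alike for the subunits, at 0.79 for the large and 0.90 for the small. By chromosome arm the median of the members was 0.19 on 2L (12 genes), 1.05 on 2R (12 genes), 0.93 on 3L (17 genes), 0.87 on 3R (21 genes) and 0.81 on X (11 genes). All measured protein-coding genes had medians from 0.53 on X to 0.73 on 3R over these arms, with 0.59 on 2L.

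**Figure D2:**
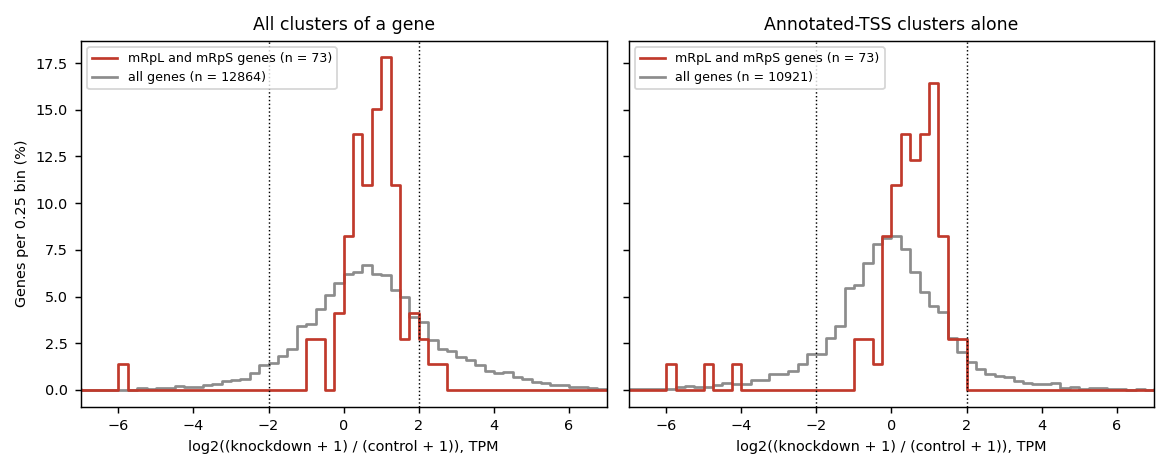
Distribution of the log2 ratio of knockdown over control for the 73 mitochondrial ribosomal protein genes (red) and for all measured genes (grey), as the percent of genes in each bin of 0.25. The left panel sums all clusters of a gene and the right panel uses clusters at annotated start sites alone; dotted lines mark the 4-fold rule at -2 and 2. The ribosomal genes gather around 0.82 on the left and 0.66 on the right, and the 3 genes far to the left of the right panel are mRpL51, mRpS23 and mRpL3.

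The 4 genes called higher were mRpS26, mRpL23, mRpS11 and mRpL9. The gene mRpS26, which encodes a mitochondrion-specific protein of the small subunit, stood at 190.2 TPM in the knockdown and 31.5 TPM in control. Its log2 ratio was 2.56 and its ratio of TPM values, without the added 1, was 6.04 (95% counting interval 5.73 to 6.37). The gene mRpL23, whose bacterial counterpart lies beside the exit of the peptide tunnel, stood at 77.5 TPM in the knockdown and 13.9 TPM in control, with a log2 ratio of 2.40. Its ratio was 5.57 (5.14 to 6.04). The gene mRpS11, whose bacterial counterpart sits on the platform of the small subunit, stood at 104 TPM in the knockdown and 22.1 TPM in control, with a log2 ratio of 2.19 and a ratio of 4.72 (4.43 to 5.04). The gene mRpL9 stood at 93.0 TPM in the knockdown and 20.8 TPM in control, with a log2 ratio of 2.11 and a ratio of 4.47 (4.18 to 4.79). After rescaling these 4 log2 ratios were 1.85, 1.69, 1.48 and 1.40 in the same order, all inside the 4-fold rule.

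None of these 4 genes passed the rule at its annotated start site. There the log2 ratios were 0.85 for mRpS26, 1.25 for mRpL23, 1.81 for mRpS11 and 1.36 for mRpL9. With tags in coding exons left out, the gene totals gave 0.85, 1.24, 1.83 and 1.36 in the same order. The remainder lay in coding exons, and those tags are described below. Just outside the rule on the upper side were mRpS29, which encodes the GTP-binding protein known in mammals as DAP3, at 42.8 TPM in the knockdown and 11.2 TPM in control (log2 1.84), mRpL49 at 25.8 TPM in the knockdown and 6.62 TPM in control (1.81), and mRpS23 at 95.8 TPM in the knockdown and 27.2 TPM in control (1.78).

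The single gene called lower, mRpL51, met the rule by the placement of its tags alone. Its start cluster spans 2L:8517232-8517576 on the minus strand and held 1072 tags in the knockdown and 3125 tags in control. That is 30.7 TPM in the knockdown and 55.3 TPM in control. Its strongest position lay 138 bp upstream of the annotated start in the knockdown and 64 bp upstream in control, so the 100 bp window took the cluster in control and missed it in the knockdown. With clusters placed by their whole span, an alternative added after seeing the data, the gene stood at 30.7 TPM in the knockdown and 55.9 TPM in control, a log2 ratio of -0.85. So placed, 0 of the 73 genes were called lower, beside 5.47% of all genes, and the same 4 were called higher, beside 21.1%.

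The other 7 genes with a lower value in the knockdown are all of the large subunit. The gene mRpL24, which encodes a counterpart of a bacterial protein that starts assembly of the large subunit, stood at 29.8 TPM in the knockdown and 52.9 TPM in control, a log2 ratio of -0.81. The gene mRpL4 stood at 5.23 TPM in the knockdown and 9.68 TPM in control (-0.78). For mRpL43 the log2 ratio was -0.61, and for mRpL28, at 33.1 TPM in the knockdown and 49.6 TPM in control, it was -0.57. The remaining 3 genes, mRpL20, mRpL10 and mRpL36, lay at -0.14, -0.12 and -0.10. On the TPM scale none of the 26 small-subunit genes had a lower value in the knockdown. After rescaling 9 of the 26 small-subunit genes and 21 of the 47 large-subunit genes were below 0, so the restriction to the large subunit did not hold on that scale.

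At annotated start sites alone the median log2 ratio of the ribosomal genes was 0.66 on the TPM scale, beside -0.046 over the 10921 genes measured there. After rescaling it was -0.031, beside -0.68 over all genes. Called higher were 0 of the 73 genes, beside 7.71% of all genes, and called lower were 3 (4.11%), beside 9.53%. The 3 were mRpL51, mRpS23 and mRpL3, and each rests on a strongest position that left the window. In mRpL3, which encodes a counterpart of the bacterial protein near the peptidyl transferase center, the cluster at X:15761243-15761447 held 24.2 TPM in the knockdown and 17.5 TPM in control, and in the knockdown its strongest position lay 158 bp downstream of the annotated start, in an intron. In mRpS23, a gene with a mitochondrion-specific product, the cluster at 2L:13834734-13835096 held 95.8 TPM in the knockdown, with its strongest position 250 bp downstream of the annotated start and in a coding exon. The same site held 27.2 TPM in control, with its strongest position 8 bp upstream of the start. Placed by span, 0 of the 73 genes were called in either direction at annotated sites, and their median was 0.69. Consensus clusters, which join the clusters of both groups, gave 76 at the annotated starts of these genes. Of these 0 were gained, beside 7.58% of all such clusters, and 0 were lost, beside 8.3%, and their log2 ratios ran from -0.998 to 1.81.

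Inside coding exons the groups differed widely. In the knockdown 20684 of the genes' 155302 tags, 13.3% (95% Wilson interval 13.2 to 13.5), lay in clusters whose strongest position was in a coding exon, and in control 929 of 143015 tags did, 0.650% (0.609 to 0.693). That is 591 TPM in the knockdown and 16.4 TPM in control. Annotated start sites held 83.6% (83.4 to 83.8) of the tags in the knockdown and 98.4% (98.3 to 98.4) in control. Introns held 2.99% in the knockdown and 0.788% in control. The control intron tags include 306 of mRpL15, in a cluster that overlaps a knockdown cluster placed in a coding exon. The control coding-exon tags include 190 of mRpS9, at a site whose 475 knockdown tags were placed in an intron. Over all protein-coding genes, coding exons held 13.7% of the tags in the knockdown and 1.99% in control, so the knockdown share of the ribosomal genes was near that of protein-coding genes in general. In control it was the lower of the pair. The intervals cover counting error only. The coding-exon share in the knockdown counts the mRpS23 cluster and 1 cluster of mRpS28 that reach within 100 bp of an annotated start. With the 3778 tags of these clusters counted at the start site, an alternative added after seeing the data, the share was 10.9%. The share depends on how far from an annotated start a cluster still counts as annotated. With a window of 500 bp it was 2.13% in the knockdown and 0.012% in control, beside 9.63% in the knockdown and 1.16% in control over all protein-coding genes.

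By gene, 42 of the 73 (57.5%) had a coding-exon cluster in the knockdown and 25 (34.2%) in control. These shares were near those of all measured protein-coding genes, 62.9% in the knockdown and 34.5% in control. In 21 genes there was one in the knockdown and none in control, in 4 genes the reverse, and in 27 genes there was none in either group. Coding exons held more than 10% of the tags in 19 genes in the knockdown. In control mRpS9 passed that share, with 190 of its 1307 control tags, and no other gene did. After mRpS23, whose single knockdown cluster was placed in the coding exon whole, mRpS26 had the largest share, 72.6% (71.5 to 73.7) in the knockdown and 9.89% in control. Then came mRpL18 with 57.7%, mRpL23 with 55.9%, mRpL54 with 48.7%, mRpL19 with 45.3%, mRpS18B with 44.0%, mRpL9 with 41.5% and mRpL15 with 38.9% of the knockdown tags. In control the shares of these 7 genes lay between 0% and 2.05%. They leave out 306 of the 2827 control tags of mRpL15, in a cluster whose strongest position was in an intron. That cluster overlaps a knockdown cluster of mRpL15 placed in a coding exon. The control share of mRpL15, and its absence from the genes above 10% in control, therefore depend on this placement. The reverse holds for mRpS9. Its site at 3R:7902393-7902516 held 190 tags placed in a coding exon in control and 475 tags placed in an intron in the knockdown.

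Of the 40 consensus clusters in the coding exons of these genes, 23 (57.5%) were gained under the same 4-fold rule, beside 46.1% of all coding-exon clusters. None were lost, beside 0.799% of all. No control tag was called in 6 of the 23. They lay in 18 genes, 24.7% of the 73, beside 32.1% of the 11556 measured protein-coding genes. The coding sequences of the ribosomal genes are short, with a median of 576 bp beside 1260 bp over all measured protein-coding genes. Per 10 kb of coding sequence they had 4.69 gained clusters, beside 2.53 over all those genes. The count per gene was thus below, and the count per length above, that of protein-coding genes in general.

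**Figure D3:**
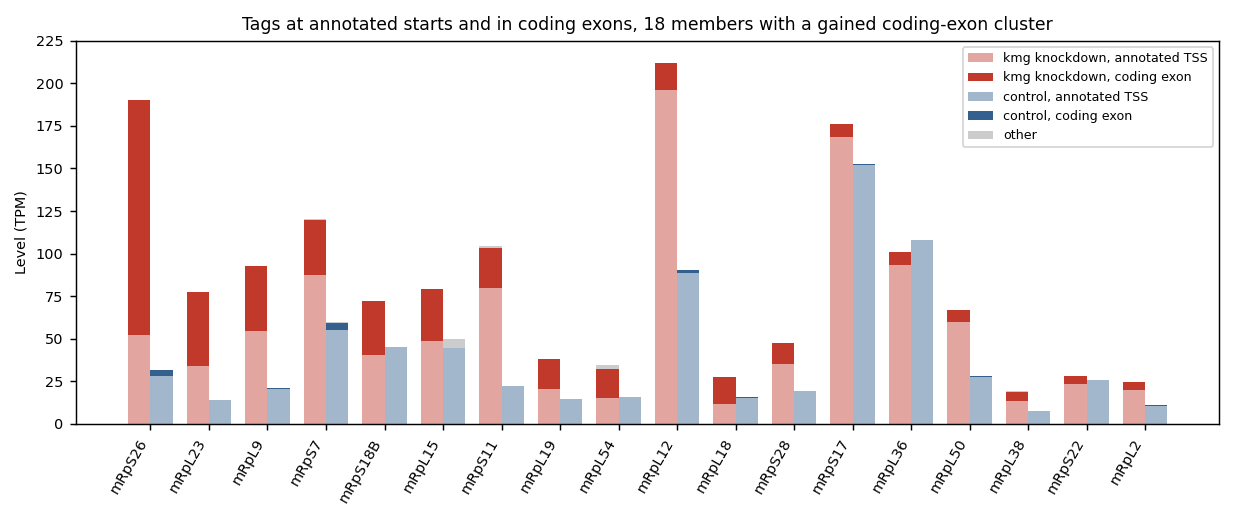
Tags of the 18 genes with a gained coding-exon cluster, in TPM, with the kmg knockdown bar (red) to the left of the control bar (blue) for each gene. The pale part is the level at annotated start sites, the dark part the level in coding exons and grey the remainder; each bar is 1 pooled value. The dark part reaches 138 TPM for mRpS26 in the knockdown and is at most 4.10 TPM in control, for mRpS7.

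The largest of the 23 was in mRpS26, at 3L:18106905-18107121 on the plus strand. It held 136 TPM in the knockdown and 3.03 TPM in control, a ratio of 44.9 (counting interval 38.6 to 52.6). Its strongest position lay 403 bp downstream of the annotated start and 15 bp into the second of the gene's 2 coding exons. It was higher than the gene's own annotated start site, which held 52.1 TPM in the knockdown and 28.4 TPM in control.

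In mRpL23 the cluster at 3L:2372903-2373049 on the minus strand held 43.3 TPM in the knockdown and 0.0885 TPM in control, from 1513 tags in the knockdown and 5 in control. The ratio was 489 (209 to 1508), an interval kept wide by the 5 control tags. It too was above the gene's annotated sites, which together held 34.2 TPM in the knockdown and 13.8 TPM in control. In mRpL9 the cluster at 3R:15330958-15331234 on the plus strand held 38.6 TPM in the knockdown and 0.177 TPM in control, a ratio of 218 (118 to 456). The annotated start of mRpL9 held more, 54.4 TPM in the knockdown and 20.6 TPM in control.

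In mRpS11 the main new cluster, at 3R:17073313-17073394 on the plus strand, held 19.7 TPM in the knockdown from 690 tags, with 0 control tags. Over the floor of 3 control tags that is at least 372-fold higher. It lay 601 bp downstream of the annotated start, in part 3 of 5 of the coding sequence. A second cluster of mRpS11 held 3.97 TPM in the knockdown and 0.0708 TPM in control. Most tags of mRpS11 were at its annotated start, with 79.7 TPM in the knockdown and 22.0 TPM in control, so this gene differs from mRpS26 and mRpL23 in where its added tags lie.

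**Figure D4:**
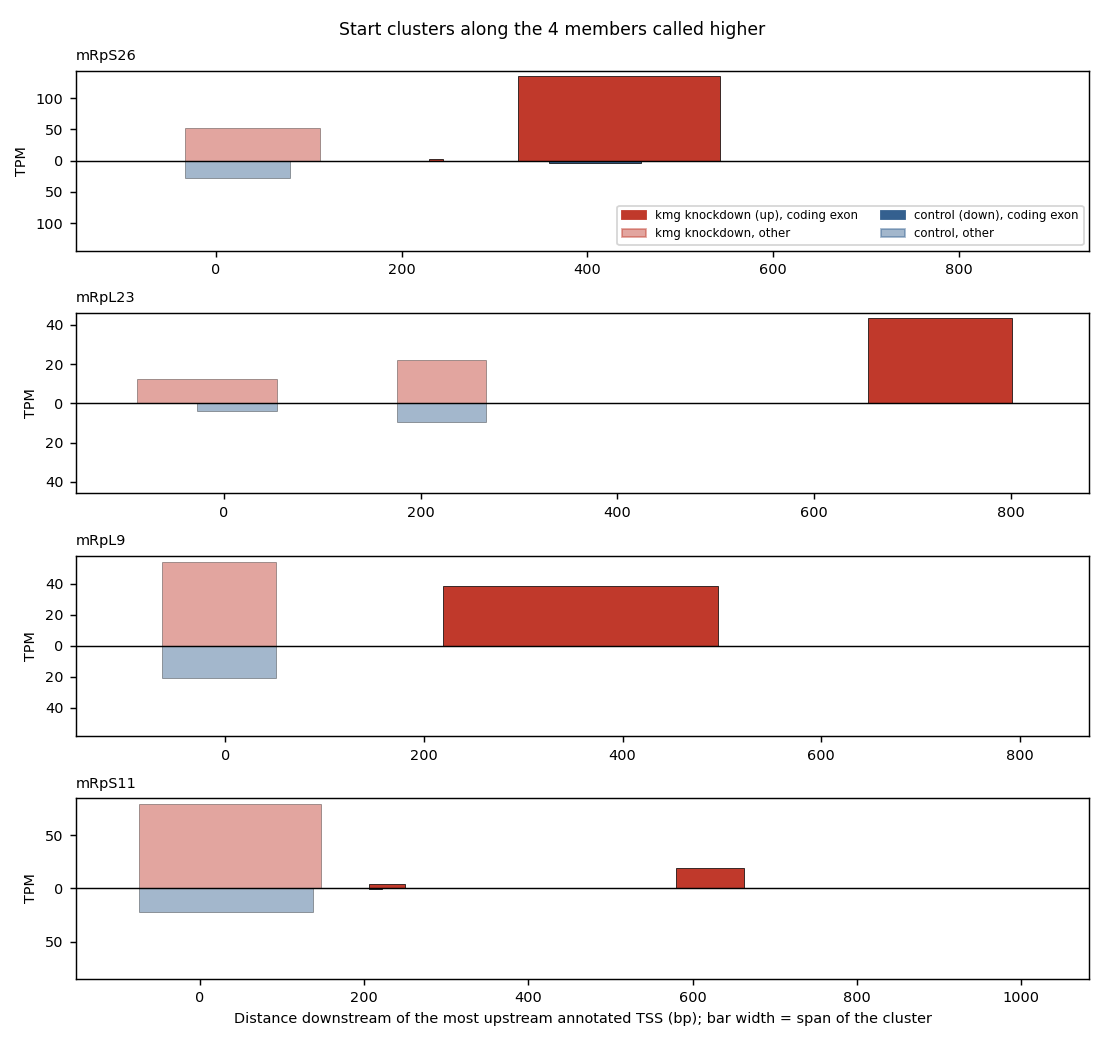
Start clusters along the 4 genes called higher, with the kmg knockdown above the line (red) and control below it (blue) in TPM, on an axis of distance from the most upstream annotated start. Bar width is the span of a cluster, and dark bars are clusters whose strongest position is in a coding exon. The coding-exon cluster is the tallest knockdown bar in mRpS26 (136 TPM) and mRpL23 (43.3 TPM), and the annotated start is the tallest in mRpL9 (54.4 TPM) and mRpS11 (79.7 TPM).

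Genes that were not called as a whole also had gained coding-exon clusters. In mRpS18B, a small-subunit gene, the cluster at 2L:20096847-20096990 held 31.8 TPM in the knockdown and 0.0531 TPM in control, from 1113 tags in the knockdown and 3 in control, a ratio of 600 (204.6 to 2912). In mRpS7 the cluster at 2L:10386949-10387166 held 32.1 TPM in the knockdown and 3.08 TPM in control, a ratio of 10.4 (8.89 to 12.3). In mRpL15 the cluster at 3L:20435775-20436007 held 27.3 TPM in the knockdown and 5.48 TPM in control, a ratio of 4.98 (4.38 to 5.68). The mRpL15 site is the one with the highest control level, and there the strongest control position fell in the intron just upstream.

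The remaining 5 of the 12 highest sites were lower. In mRpL12 it held 16.3 TPM in the knockdown and 1.504 TPM in control, a ratio of 10.8 (8.62 to 13.8). In mRpL18 it held 15.9 TPM in the knockdown and 0.318 TPM in control, a ratio of 50.0. In mRpS28 it held 12.2 TPM in the knockdown and 0.283 TPM in control, a ratio of 43.0 (26.2 to 76.0). These 3 sites held 85, 18 and 16 tags in control, in the same order of genes. In mRpL54, which encodes a mitochondrion-specific protein, it held 11.8 TPM in the knockdown and 0.0531 TPM in control, a ratio of 222 (75.4 to 1081). In mRpL19 it held 7.66 TPM in the knockdown and 0.106 TPM in control, a ratio of 72.2 (32.7 to 198), and 2 further mRpL19 clusters held 3.55 and 3.03 TPM in the knockdown with 0 control tags.

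Across the 23 gained clusters the knockdown level ran from 3.03 to 136 TPM with a median of 7.66 TPM, and the control level from 0 to 5.48 TPM. The strongest positions lay 153 to 948 bp from the nearest annotated start, with a median of 391 bp, and 15 to 854 bp from the start of their coding exon, with a median of 127 bp. Their width in the knockdown ran from 21 to 154 bp, with a median of 64 bp, which equals the median width of the annotated start clusters of these genes in the knockdown. The annotated start sites of the 18 genes that had such a cluster had a median log2 ratio of 0.71, from -0.36 in mRpL18 to 1.81 in mRpS11. The 55 other genes had a median of 0.65. The genes with new coding-exon clusters were thus close to the others at their own start sites.

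In introns 4 of 13 consensus clusters were gained, beside 38.9% of all intron clusters. The largest was in mRpL53, with 58.5 TPM in the knockdown and 3.03 TPM in control, a ratio of 19.3 (16.5 to 22.7), 852 bp from the nearest annotated start. A second mRpL53 cluster held 4.52 TPM in the knockdown and 0.159 TPM in control. These too cannot be divided between mRpL53 and CG33155. The others were in mRpS31, with 5.49 TPM in the knockdown and 0.142 TPM in control, and in mRpS6, with 4.75 TPM in the knockdown and 0.159 TPM in control.

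The annotated start clusters of these genes were broad in both testes. Width here is the authors' interquantile width, the distance that holds the tags between the 10% and 90% positions of a cluster, for the strongest annotated cluster of the 68 genes with at least 5 TPM there in both groups. The median was 64 bp in the knockdown and 56 bp in control, and over 6526 genes measured the same way it was 56 bp in the knockdown and 47 bp in control. A width of 10 bp or less was found in 0 of the 68 in the knockdown and in 1 in control, mRpL47 with 8 bp. Over all genes 13.6% were that sharp in the knockdown and 15.4% in control. The 92 cytosolic ribosomal protein genes had a median of 16.5 bp in the knockdown and 12 bp in control, with 31.5% of them sharp in the knockdown and 45.7% in control. The 39 measured genes of respiratory complex I had medians of 74 bp in the knockdown and 59 bp in control, with none sharp in either group. The mitochondrial ribosomal genes were thus nearer to complex I genes than to cytosolic ribosomal genes in the shape of their start clusters.

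The width was larger in the knockdown in 42 of the 68 genes (61.8%), smaller in 22 and equal in 4, with a median difference of 8.5 bp. Over all genes 57.8% were wider in the knockdown and the median difference was 4 bp. Among the 68 genes the widest cluster in the knockdown was that of mRpL21, with 293 bp in the knockdown and 58 bp in control. Next came mRpL50, with 198 bp in the knockdown and 56 bp in control. Then came mRpS34, with 184 bp in the knockdown and 34 bp in control. The start clusters of mRpS23 and mRpL51 were not among the 68. They had 237 bp and 220 bp in the knockdown and 141 bp and 155 bp in control, in that order. In mRpL21 the strongest position was the same in both groups, but it held 8.503% of the cluster's tags in the knockdown and 57.2% in control, with tags at 66 positions in the knockdown and 33 in control. The knockdown cluster of mRpL21, at 3L:19254737-19255151, covers a stretch where control had the separate clusters 3L:19254820-19254848 and 3L:19254889-19255151. The widths of mRpL50 and mRpS34, and of mRpL47 with 150 bp in the knockdown and 8 bp in control, come with the same difference in how clusters were joined. The narrowest in the knockdown were mRpL34, with 25 bp in the knockdown and 16 bp in control, mRpL55, with 28 bp in the knockdown and 64 bp in control, and mRpL32, with 29 bp in the knockdown and 42 bp in control. The gene mRpL13 equalled mRpL32 in the knockdown, with 32 bp in control.

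The strongest start position was the same base in 41 of the 68 genes (60.3%), beside 65.2% of all genes. It lay more than 10 bp away in 23 (33.8%), beside 25.4% of all genes, downstream in the knockdown in 10 and upstream in 13. Among the 68 genes the largest displacements were 92 bp downstream in mRpS10, 81 bp downstream in mRpS11 and 70 bp upstream in mRpS14. Next were 65 bp downstream in mRpL24 and 50 bp downstream in mRpL52. Not among the 68 were mRpS23, mRpL3 and mRpL51, whose strongest knockdown positions left the 100 bp window. These positions lay 250 bp downstream, 158 bp downstream and 138 bp upstream of the annotated start. The moves of more than 10 bp went both toward and away from the annotated start. The strongest position of mRpS10 lay at the annotated start in the knockdown and 55 bp upstream of its nearest annotated start in control, while that of mRpS11 lay 81 bp downstream of it in the knockdown and at it in control. Over the 68 genes the median distance to the annotated start was 6.5 bp downstream in the knockdown and 8 bp downstream in control, and 36 lay within 10 bp of it in the knockdown and 31 in control.

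A large share of these genes sits head to head with another gene. An annotated start of another gene on the opposite strand lay within 500 bp upstream in 53 of the 73 (72.6%), and the same holds for 29.6% of the 13986 annotated protein-coding genes and 32.7% of those measured. The start sites of a pair lay 20 to 499 bp apart, with a median of 264 bp. Every such neighbour codes for a protein, and none is itself a mitochondrial ribosomal gene. The closest pair was mRpL18 with Taz, 20 bp apart, where mRpL18 stood at 27.6 TPM in the knockdown and 15.6 TPM in control and Taz, which encodes the cardiolipin-remodeling enzyme tafazzin, at 46.7 TPM in the knockdown and 38.6 TPM in control. Other close pairs were mRpS14 with Naa15-16 at 21 bp, mRpL23 with CG9004 at 24 bp, mRpL46 with CG2021 at 28 bp and mRpL51 with Uba4 at 31 bp.

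The nearest neighbour of each gene is described here, 53 in all. For mRpL47, CG8176 was taken, and Kdm3 lies at the same 99 bp with the same tags at its start. Of these 53 neighbours 51 were measured. Their median log2 ratio was 0.57, the 53 ribosomal genes beside them had 0.84, and the 20 ribosomal genes without a neighbour had 0.76. At annotated starts the neighbours had a median of 0.22 and the ribosomal genes beside them 0.66. Over the 50 pairs measured at both starts, Pearson's r of these log2 ratios was 0.018 and Spearman's rho 0.12, as a description across pairs that share the same pooled libraries. Placed by span, the values were 0.053 and 0.10. After rescaling 32 of the 50 pairs had both starts within 2-fold. The neighbour stood above the ribosomal gene in 23 pairs in the knockdown and in 23 in control. Neighbours with known mitochondrial roles are given here as examples and not as a full list. Taz, described above, had a higher value in the knockdown. HtrA2, a protease, stood at 40.4 TPM in the knockdown and 47.1 TPM in control beside mRpL11. At its annotated start HtrA2 had 19.2 TPM in the knockdown and 46.6 TPM in control. Mitofilin, which shapes the inner membrane, stood at 88.0 TPM in the knockdown and 208 TPM in control beside mRpL35, and the ATP synthase subunit gene ATPsynD at 264 TPM in the knockdown and 262 TPM in control beside mRpL55.

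**Figure D5:**
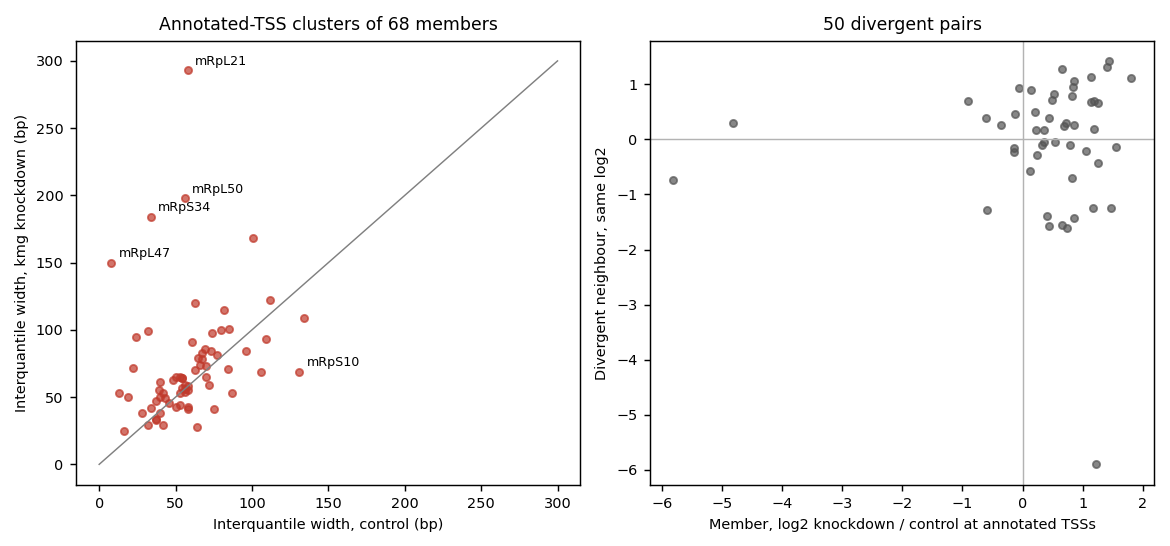
Left, interquantile width in bp of the strongest annotated start cluster in the kmg knockdown (vertical axis) and control (horizontal axis) for 68 genes, with the line of equality; 42 points lie above it, and mRpL21 is highest at 293 bp. Right, log2 ratio of knockdown over control at annotated starts for 50 pairs of a ribosomal gene (horizontal axis) and its head-to-head neighbour (vertical axis). The far points at the left and bottom are mRpL51, mRpS23 and Naa15-16, whose strongest positions left the 100 bp window.

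Called higher were 3 of the 51 neighbours (5.88%), beside 21.3% of all genes, and called lower was 1 (1.96%), beside 5.42%. The gene CenG1A, next to mRpS23, stood at 211 TPM in the knockdown and 8.21 TPM in control, a log2 ratio of 4.52, with 0.29 at its annotated starts. Its coding exons held 84.2 TPM in the knockdown and 0.0354 TPM in control, and its introns 87.9 TPM in the knockdown. The gene trr, which encodes a histone H3K4 methyltransferase and lies next to mRpL16, stood at 15.6 TPM in the knockdown and 2.21 TPM in control, of which coding exons held 12.9 TPM in the knockdown and 0.177 TPM in control. The gene mei-P22, which acts in meiotic recombination and lies next to mRpL50, had a single coding-exon cluster of 5.49 TPM in the knockdown and no tags in control. In these 3 neighbours the added tags lay mostly inside the gene and not at its annotated starts. For CenG1A, 29.6 TPM of the knockdown value lay at the annotated start of another gene. The gene CG5323, next to mRpS28, stood at 67.3 TPM in the knockdown and 276 TPM in control, but 244 TPM of the control value was a cluster at the annotated start of another gene. At its own start CG5323 had 67.3 TPM in the knockdown and 31.9 TPM in control. A gained coding-exon cluster was found in 16 of the 51 neighbours (31.4%), near the 32.1% of all measured protein-coding genes.

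Other genes of mitochondrial translation were described as lists, with the same 4-fold rule. The gene tko stood at 61.8 TPM in the knockdown and 21.6 TPM in control, a log2 ratio of 1.48, and bonsai at 49.7 TPM in the knockdown and 34.8 TPM in control, 0.50. Neither was called. Of 18 measured genes of mitochondrial translation and mitochondrial DNA expression, tko and bonsai included, 2 (11.1%) were called higher and 0 lower, with a median of 0.99. They were bsf, which encodes an RNA-binding protein of mitochondria, at 59.6 TPM in the knockdown and 6.19 TPM in control, and the release factor gene mRF1, at 11.8 TPM in the knockdown and 1.93 TPM in control. At annotated starts alone their log2 ratios were 0.38 and 0.80, and neither was called. There 15 of the 18 genes were measured, with a median of 0.38. Of these 1 (6.67%), mEFTs, was called higher, beside 7.71% of all genes, and 1 (6.67%), mEFTu2, lower, beside 9.53%. By the sum of all clusters mEFTs and mEFTu2 had -0.70 and -0.74. After rescaling 1 of 17 measured genes was called higher and 0 lower, with a median of 0.36. Of the 15 mitochondrial aminoacyl-tRNA synthetase genes, which charge the tRNAs that this ribosome uses, 4 (26.7%) were called higher and 0 lower, with a median of 0.39. The shares called higher in these lists lie to either side of the 21.3% of all genes. These were AlaRS-m, at 17.1 TPM in the knockdown and 1.40 TPM in control, ArgRS-m, at 8.09 TPM in the knockdown and 1.06 TPM in control, GluRS-m, at 8.63 TPM in the knockdown and 0.655 TPM in control, and ProRS-m, at 17.6 TPM in the knockdown and 0.761 TPM in control. After rescaling 2 of the 15 synthetase genes were called higher, beside 14% of all genes, and 1 lower, beside 9.39%, with a median of -0.18. At annotated starts alone 13 of these synthetase genes were measured, with a median of -0.17. There 0 were called higher, beside 7.71% of all genes, and 1 was called lower (7.69%), beside 9.53%. That gene was CysRS-m, with a log2 ratio of -2.02 at its start.

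Complex I, which contains subunits that the mitochondrial ribosome makes, had 40 measured genes, with 0 called in either direction and a median of 0.36. Of all genes 21.3% were called higher and 5.42% lower. After rescaling the complex I median was -0.35, with 0 called higher, beside 14% of all genes, and 1 lower, beside 9.39%. The 92 cytosolic ribosomal protein genes had 4 called higher (4.35%) and 2 lower (2.17%), below the shares of all genes, with a median of 0.76, and 0.65 at annotated starts, near the 0.66 of the mitochondrial ribosomal genes. After rescaling 0 of the cytosolic genes were called higher and 3 lower, with a median of 0.047. The levels of cytosolic and mitochondrial ribosomal genes were far apart, with a median of 391 TPM in the knockdown and 268 TPM in control for the cytosolic genes.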

How the data were processed

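CAGE start sites of testes were compared between the kmg knockdown and control, 2 libraries each. The submitters' processing notes name the builds dm6 and BDGP6 and the tools bedtools, STAR 2.7.11b and Trim Galore 0.6.6. For the step that called the clusters, a tool was not given in the sources used here. Deposited were 3 tables, with start clusters for the knockdown, for control and for both joined. Their column headed TPM held whole numbers, so these deposited values were taken as raw tag counts, pooled by the authors over the libraries of a group. The number of start positions in a cluster is a deposited count, and the interquantile width, another deposited measure, is a distance in bp.

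Counts were scaled here to 1e+06 tags per group. Each cluster was placed by its strongest position on the Ensembl release 115 gene models, on the same strand, within 100 bp of an annotated TSS or else by feature. A gene level summed the clusters in its body or within that window. Compared were genes, and joined clusters, that reached 1 TPM in the knockdown or control, with a pseudocount of 1 TPM and a call at 4-fold. Rescaling used the 25902 consensus clusters found in both groups. Coordinates are dm6, counted from 1. Intervals are 95%, of the Wilson kind for shares and from the exact binomial for ratios, and they and the floors cover counting error only. The replicated test planned for counts per library could not be used, since each group is 1 pooled value.

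The genes and all lists were chosen with earlier results of these data known. Named with values were the genes called, the 12 highest in control, members not detected, the 12 with the largest gained coding-exon cluster, the 3 narrowest and 3 widest annotated clusters, the 5 largest moves of the strongest position, called neighbours, tko and bonsai; other genes were named after their values were seen. The calculation was tested on simulated data. Alternatives were other pseudocounts, minimums, windows, scalings and placements. Python 3.11.15 with pandas 2.3.3, numpy 2.4.6, scipy 1.17.1 and matplotlib 3.10.9 was used.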

Additional observations from a re-analysis of the deposited data

How the results depend on the processing

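No paired analysis was possible because each group is 1 pooled value over its libraries, and leaving out a replicate was not run for the same reason. Of 46 alternative values, 15 moved beyond the tolerance set for them and 0 were classed as reversed. The median log2 ratio at annotated TSSs was classed as moved, although it crossed 0 after rescaling, as given below. The 4 genes called higher became 0 after rescaling, beside 14% of all genes, and 0 with annotated TSS clusters alone, beside 7.71%. With the strongest cluster alone they became 2 (mRpL23 and mRpS26), beside 17.1% of all genes. The 1 gene called lower became 3 with annotated TSS clusters alone, beside 9.53% of all genes. With a window of 500 bp it became 0, beside 5.10%. With clusters placed by span, an alternative added after seeing the data, it became 0, beside 5.47%. The median log2 ratio of 0.82 was 0.14 after rescaling and 0.66 at annotated TSSs alone, and that second value was -0.031 after rescaling. The 18 genes with a gained coding-exon cluster became 27 with a pseudocount of 0.5 TPM, 10 with a pseudocount of 3 TPM, 13 after rescaling and 7 with a window of 500 bp. The main setting had 32.1% of all measured protein-coding genes with such a cluster. Their share at the other settings is not given here, so these moves cannot be set against those of all genes. The coding-exon share of knockdown tags, 13.3%, was 14.2% without clusters shared with another gene, 2.13% with a window of 500 bp and 10.9% with clusters that reach an annotated TSS counted there, the last added after seeing the data. The wider window counts as annotated every start within 500 bp downstream, and the gained clusters had a median distance of 391 bp. The 53 genes with a head-to-head neighbour became 22 within 200 bp. Depth limits the ratios of clusters with few control tags, such as the 5 in mRpL23 and 3 in mRpS18B.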
